A study of Homo sapiens with 4 samples.

Results

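The genes described here are direct transcriptional targets of the tumour suppressor p53 together with triggers of apoptosis, a list of 33 genes chosen by symbol. Of these, 32 had a row among the 26603 genes of the table, and PHLDA3 was not analysed here. The cells were PLC8024, a human liver cancer cell line, and 2 libraries labelled drug were set against 2 labelled control. No label names the drug, its dose or how long it was given, and none states a genotype, an allele or an agent that both groups received. Whether the 2 libraries of a group are separate cultures is not stated either, and the p-values then cover only the spread between these samples, which may be technical. Levels are in FPKM, read counts scaled for gene length and library total, and a group's level is its mean ± SD over n = 2 libraries.

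p53 is a transcription factor that is held low by MDM2 and MDM4 and accumulates when DNA is damaged or ribosome assembly is disturbed. It then switches on genes that stop the cell cycle, repair DNA, restrain its own activity or start apoptosis. In the intrinsic route to apoptosis, BH3-only proteins such as PMAIP1, BBC3 and BID open the outer mitochondrial membrane through BAX and BAK1, and caspase 9 is activated on the apoptosome. In the extrinsic route, death receptors at the cell surface such as FAS and TNFRSF10B activate caspase 8.

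p53 binds DNA as a tetramer over a pair of consensus decamers, and the promoters are shown to place that element on the members whose levels follow. RefSeq windows from 250 bases before to 50 bases after a gene's start (build GRCh38.p14) were held for 27 members, in 43 windows. On both strands at once, since the motif is its own reverse complement, each window was searched for the p53 consensus decamer and for a full site. A full site was a pair of decamers at most 1 base apart with at most 2 mismatches in all and with the core C and G of each decamer kept. Capitals mark the full site in the first 4 windows. The last 2, of the member with the largest rise and of the member with the largest fall, hold neither element.
MDM2: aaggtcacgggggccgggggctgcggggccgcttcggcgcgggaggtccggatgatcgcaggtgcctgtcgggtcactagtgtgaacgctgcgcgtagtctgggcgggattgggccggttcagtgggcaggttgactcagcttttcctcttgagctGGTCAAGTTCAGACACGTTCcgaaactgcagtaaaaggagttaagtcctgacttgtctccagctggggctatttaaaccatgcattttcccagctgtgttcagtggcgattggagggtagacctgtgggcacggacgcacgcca
DDB2: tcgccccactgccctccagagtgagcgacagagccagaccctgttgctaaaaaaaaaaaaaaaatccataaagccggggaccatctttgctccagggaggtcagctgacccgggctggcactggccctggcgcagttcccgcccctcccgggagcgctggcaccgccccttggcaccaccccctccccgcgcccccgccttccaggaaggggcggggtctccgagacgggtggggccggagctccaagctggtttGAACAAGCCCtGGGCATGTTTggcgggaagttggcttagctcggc
AEN: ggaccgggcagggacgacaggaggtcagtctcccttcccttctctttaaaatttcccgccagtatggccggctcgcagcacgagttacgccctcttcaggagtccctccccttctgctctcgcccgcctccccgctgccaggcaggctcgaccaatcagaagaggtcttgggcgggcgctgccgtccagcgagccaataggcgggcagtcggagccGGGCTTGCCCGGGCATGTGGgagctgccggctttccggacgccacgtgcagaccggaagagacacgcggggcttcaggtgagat
FAS: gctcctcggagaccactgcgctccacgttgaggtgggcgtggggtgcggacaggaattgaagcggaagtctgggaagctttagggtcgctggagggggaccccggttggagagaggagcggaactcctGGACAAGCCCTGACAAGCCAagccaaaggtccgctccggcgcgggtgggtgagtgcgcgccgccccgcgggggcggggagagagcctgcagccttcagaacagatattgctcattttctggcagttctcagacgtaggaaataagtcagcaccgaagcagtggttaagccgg
PERP: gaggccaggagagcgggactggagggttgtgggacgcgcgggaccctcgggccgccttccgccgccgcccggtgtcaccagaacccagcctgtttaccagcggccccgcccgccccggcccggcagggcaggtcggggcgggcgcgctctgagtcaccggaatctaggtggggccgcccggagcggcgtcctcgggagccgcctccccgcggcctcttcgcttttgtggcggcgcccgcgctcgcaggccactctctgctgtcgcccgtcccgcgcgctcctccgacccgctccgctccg
CDKN1A: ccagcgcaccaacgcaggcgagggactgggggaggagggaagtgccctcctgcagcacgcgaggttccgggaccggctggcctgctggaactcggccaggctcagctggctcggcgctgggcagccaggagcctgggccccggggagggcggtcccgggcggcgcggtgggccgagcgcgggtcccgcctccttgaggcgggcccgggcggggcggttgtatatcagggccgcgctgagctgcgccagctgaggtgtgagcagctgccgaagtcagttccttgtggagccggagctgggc

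The MDM2 window shown is chr12:68808767-68809066 on the plus strand, and its site spans positions -94 to -75. Positions are counted from the start that a window surrounds, and a gene can have several starts. The DDB2 window is chr11:47214724-47215023 on the plus strand, with a site of 0 mismatches and 1 spacer base at positions 6 to 26, just downstream of the start. The AEN window is chr15:88621090-88621389 on the plus strand, with its site at positions -34 to -15, and the FAS window is chr10:88991181-88991480 on the plus strand, with its site at positions -122 to -103. PERP's window is chr6:138107370-138107669 on the minus strand and CDKN1A's is chr6:36678464-36678763 on the plus strand. MDM2, DDB2, AEN and FAS were the 4 members with a full site, in 5 windows, since MDM2 has another start nearby whose window holds the same site. Windows of MDM2 at chr12:68807922-68808221 and chr12:68807927-68808226, from starts further upstream, held no full site. Nor did upstream windows of FAS at chr10:88990548-88990847 and chr10:88990664-88990963, or that of DDB2 at chr11:47214204-47214503. Of all 34943 RefSeq windows of this length, 0.535% held a full site and 6.64% an exact decamer. Exact decamers stood in 7 of the members' windows, those of AEN, CASP9, DDB2, FAS, FDXR, PLK2 and SESN1. A match describes the letters only, and binding was not measured in these libraries. Distal elements lie outside these windows.

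With drug, 7 members changed and they did not move one way. PERP, TP53I3 and BID rose, and CDKN1A, CASP9, PMAIP1 and CCNG1 fell. None of the 4 members with a full p53 site in a window passed the test. MDM2, DDB2 and AEN were tested and did not pass, and FAS was under the filter for testing. Since 13.8% of all genes tested passed, the lack of a call among so few genes says nothing about genes with such a site. The test was limma on log2(FPKM + 1) for every gene whose drug or control mean reached 1 FPKM, a scale on which changes at low levels come out smaller than the ratio of means, and p-values were adjusted over all 11227 genes tested. Of the 32 members with a row, 27 passed that filter and 5 did not, PLK2, PLK3, TIGAR, FAS and BBC3. The 7 calls, 3 higher and 4 lower, stand against 13.8% of all genes tested, of which 7.78% were higher and 6.02% lower. In bulk RNA, fewer cells of a type and less RNA per cell cannot be told apart.

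**Figure D1:**
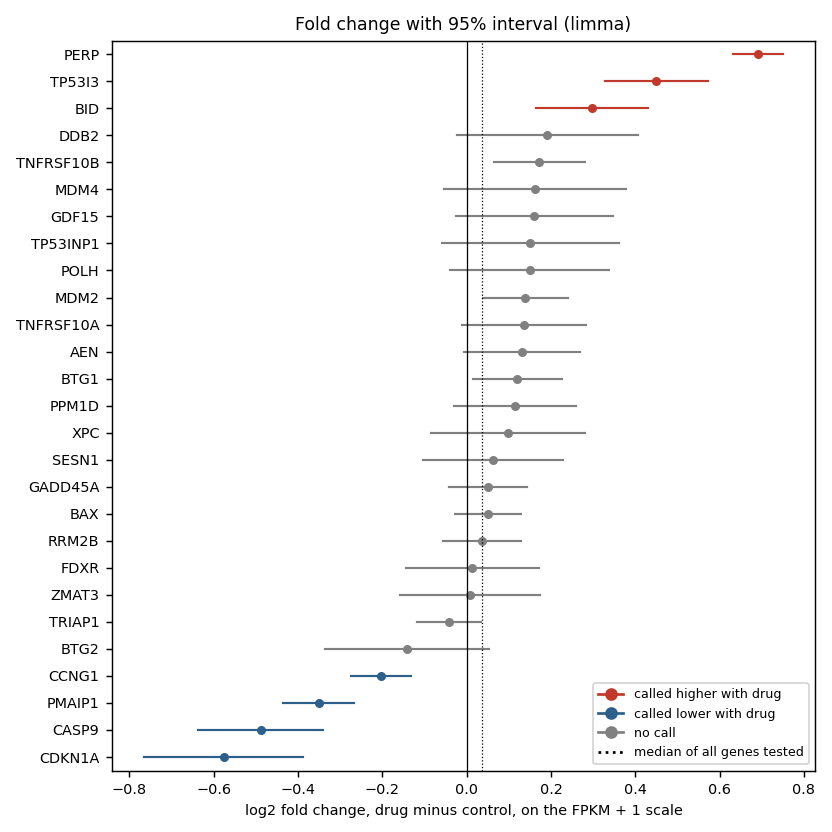
Log2 fold change of FPKM + 1, drug minus control, for each tested member with its 95% confidence interval (n = 2 libraries each, limma), ordered by size, with a dotted line at the median of all genes tested. PERP at 0.69 and CDKN1A at -0.58 lie at the ends, and most members lie slightly above 0 with intervals that reach or come close to it.

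Most members had small and positive log2 fold changes. The log2 fold change was positive in 21 of the 27 tested members, or 77.8%, against 61.0% of all genes tested. Its median was 0.11 among these members and 0.04 among all genes tested. Both drug libraries lay above both control libraries for 17 of the 27 tested members, against 40.3% of all genes tested. They lay below them for 6 of the 27, a share near the 23.3% of all genes tested. The 20 members that did not pass had log2 fold changes from -0.14 to 0.19, and their 95% limits ran from -0.34 to 0.41, so changes within those limits were not resolved with 2 libraries a group. With unadjusted p-values from limma, 3 of these 20 were under 0.05, namely BTG1, MDM2 and TNFRSF10B. The median standard error of a member's log2 fold change was 0.06, against 0.05 over all genes tested.

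Depth was lowest in control library 1. Recovered gene reads totalled 40279560 and 38685856 in drug libraries 1 and 2, and 28526098 and 38611635 in control libraries 1 and 2. Replicates correlated across genes at 0.992 (drug) and 0.993 (control), against 0.986 to 0.987 between groups. The table lists genes with reads in at least 1 control library, so a gene with reads in drug libraries alone was not analysed here. Of 10 hepatocyte markers, TTR and APOB were under 1 FPKM in all 4 libraries, and the summed level of the 10 was 829 and 799 FPKM in drug libraries against 1065 and 1065 FPKM in control libraries. That sum was lower in both drug libraries, and so was FGB, a fibrinogen chain named after its values were seen, which had 295 and 274 FPKM with drug and 556 and 549 FPKM in control. Without FGB the sum was 534 and 524 FPKM in drug libraries against 510 and 515 FPKM in control libraries, higher in both drug libraries. TTR was at 0 in all but control library 2, and limma called 2 of the 8 tested markers higher and 5 lower. The 6 fibroblast markers summed to 1.07 and 1.02 FPKM in drug libraries and to 0.640 and 0.620 FPKM in control libraries, each marker under 1 FPKM. Of 4 leukocyte markers in the table all but LYZ were under 1 FPKM, while LYZ, which encodes lysozyme, had 283 and 287 FPKM in drug libraries and 180.5 and 183 FPKM in control libraries. Of 3 endothelial markers in the table only PECAM1 was above 1 FPKM in any library, with 2.09 and 2.23 FPKM in drug libraries and 4.66 and 4.11 FPKM in control libraries. The part of these marker shifts in the members' values was not tested.

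**Figure D2:**
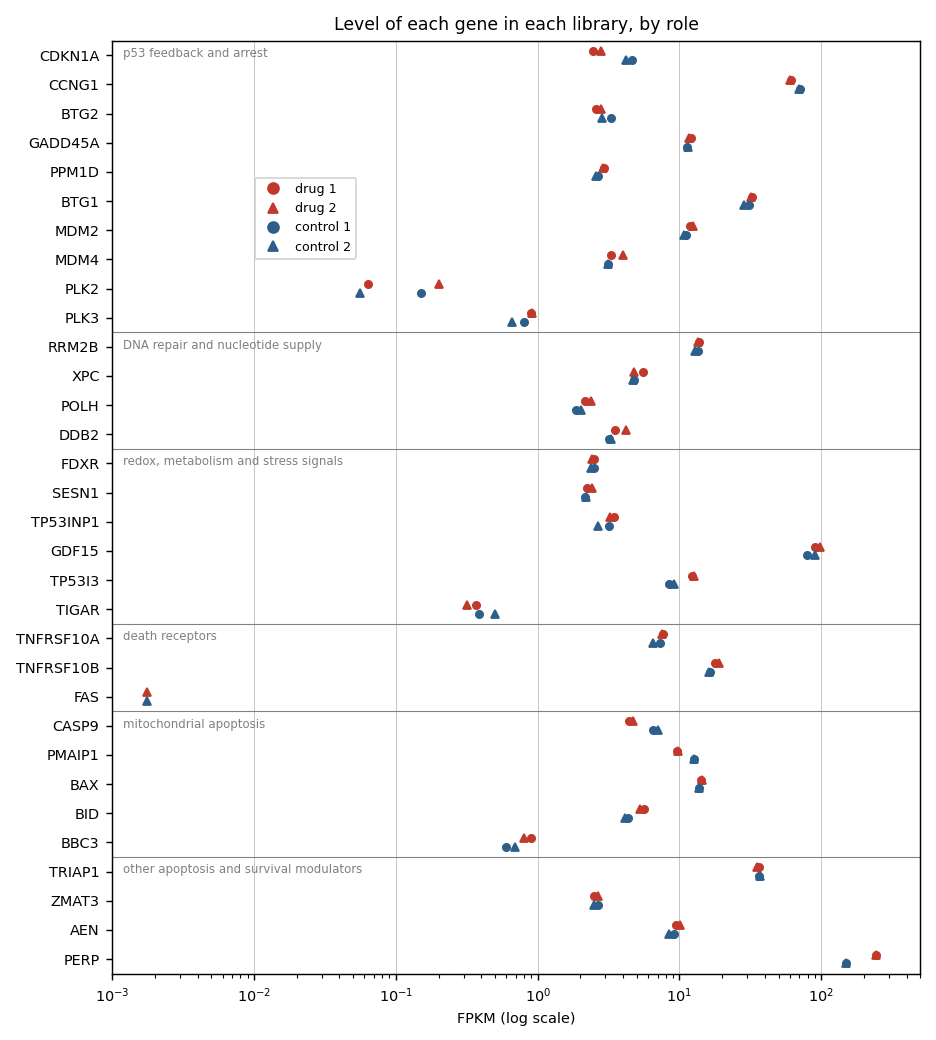
FPKM of the members in each library on a log axis, with drug libraries drawn above control libraries for each gene and listed values of 0 left out. Levels span from FAS, with at most 2 reads in a library, to PERP, with 244 FPKM in drug library 1.

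The genes of p53 feedback and cell cycle arrest held 10 members, of which 8 were tested, 0 rose and 2 fell. CDKN1A (ENSG00000124762, chr6:36676460-36687339 on the plus strand in GENCODE 29, GRCh38) encodes p21, the inhibitor of cyclin-dependent kinases that carries out p53's arrest. It had 2.45 and 2.81 FPKM in drug libraries, against 4.60 and 4.23 FPKM in control libraries. Both drug libraries were below both controls, by more than the libraries of a group differed from each other. Its mean was 2.63 ± 0.254 FPKM with drug and 4.41 ± 0.263 FPKM in control, a ratio of 0.597. On the log2(FPKM + 1) scale the change was -0.58 ± 0.07 (SE), with limma's adjusted p = 0.0130. Because the level is low the pseudocount weighs on it: with pseudocounts of 0.1 and 0.01 the log2 fold change was -0.73 and -0.75, and by edgeR on recovered reads it was -0.79 with adjusted p = 0.00236.

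CCNG1 (ENSG00000113328, chr5:163437569-163446151, plus strand) encodes cyclin G1, a p53 target that recruits a phosphatase acting on MDM2. It had 61.5 and 60.4 FPKM in drug libraries and 71.2 and 69.5 FPKM in control libraries. The groups did not overlap, and the fall was the smallest of the 7 changes. Its means were 60.95 ± 0.841 and 70.3 ± 1.24 FPKM in drug and control, and the log2 fold change was -0.20 ± 0.03 (SE) with limma's adjusted p = 0.0150.

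MDM2, the ubiquitin ligase that degrades p53 and is itself induced by it, had 11.9 and 12.5 FPKM in drug libraries against 11.1 and 10.8 FPKM in control libraries. The drug libraries were higher without overlap, but the log2 fold change of 0.14 ± 0.04 (SE) did not pass (limma adjusted p = 0.0794). Its relative MDM4, which blocks p53's activation domain, had 3.29 and 3.99 FPKM with drug and 3.14 and 3.14 FPKM in control, with adjusted p = 0.248 by limma. The spread between the drug libraries of MDM4 was wider than the gap between drug library 1 and the controls. PPM1D, a phosphatase that shuts off the damage response, averaged 2.93 ± 0.0193 FPKM with drug and 2.63 ± 0.0770 FPKM in control. Its drug libraries lay above its controls, as did those of BTG1 and GADD45A. The anti-proliferative BTG1 averaged 32.4 ± 0.419 FPKM with drug and 29.8 ± 1.48 FPKM in control, and its relative BTG2 averaged 2.68 ± 0.142 FPKM with drug and 3.07 ± 0.300 FPKM in control. GADD45A, a damage-induced stress sensor, averaged 11.8 ± 0.314 FPKM with drug and 11.4 ± 0.122 FPKM in control. The adjusted p-values of PPM1D, BTG1, BTG2 and GADD45A by limma ran from 0.118 to 0.383. BTG2 was the lone one of these with both drug libraries below both controls. On the same strand LINC01619 shares 10.36% of BTG1's exon bases, and on the opposite strand CPM, at 5.70 to 7.05 FPKM, shares 1.0% of those of MDM2, so reads at these overlaps are uncertain.

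The polo-like kinases of this group were low. PLK2 had 0.0641 and 0.200 FPKM in drug libraries and 0.151 and 0.0557 FPKM in control libraries, from 10 to 36 reads. PLK3 had 0.903 and 0.917 FPKM in drug libraries and 0.801 and 0.654 FPKM in control libraries. PLK2's groups overlapped, while PLK3's drug libraries were above its controls. The authors' deposited table gives adjusted p-values of 0.989 for PLK2 and 0.904 for PLK3.

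All 4 DNA repair and nucleotide supply members were tested, and 0 rose and 0 fell. DDB2, the damage sensor of nucleotide excision repair, has a window that holds the full p53 site without a mismatch. It had 3.49 and 4.21 FPKM in drug libraries against 3.19 and 3.28 FPKM in control libraries. The drug libraries were above the controls but differed from each other by more than drug library 1 differed from them, and the log2 fold change was 0.19 ± 0.08 (SE) with limma's adjusted p = 0.187. POLH, the polymerase that copies past ultraviolet lesions, averaged 2.26 ± 0.159 FPKM with drug and 1.93 ± 0.0999 FPKM in control (limma adjusted p = 0.227). POLH's drug libraries were above its controls. XPC, the other lesion sensor, averaged 5.13 ± 0.541 FPKM with drug and 4.72 ± 0.0715 FPKM in control (limma adjusted p = 0.392), and RRM2B, a p53-induced subunit of ribonucleotide reductase, averaged 13.6 ± 0.207 and 13.2 ± 0.370 FPKM in drug and control (limma adjusted p = 0.530). The libraries of XPC and of RRM2B overlapped between groups. The labels name a stranded library protocol, but whether counting used the strand is not given in the sources used here. Reads of XPC may therefore include reads of opposite-strand genes, among them LSM3 at 21.8 to 23.2 FPKM, which shares 6.63% of XPC's exon bases.

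Of the 6 members in redox, metabolism and stress signalling 5 were tested, and 1 rose. TP53I3 (ENSG00000115129, chr2:24077433-24085861, minus strand), also called PIG3, encodes a quinone oxidoreductase linked to reactive oxygen species. It had 12.2 and 12.6 FPKM in drug libraries, against 8.48 and 9.16 FPKM in control libraries. The gap between the groups was several times the spread within either. Its mean was 12.4 ± 0.253 FPKM with drug and 8.82 ± 0.486 FPKM in control, 1.41-fold higher, and the log2 fold change was 0.45 ± 0.05 (SE) with limma's adjusted p = 0.00845.

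GDF15, a secreted stress cytokine, was among the highest members but varied between libraries. It had 90.2 and 98.2 FPKM with drug and 78.9 and 89.6 FPKM in control, with a log2 fold change of 0.16 ± 0.07 (SE) and limma's adjusted p = 0.195. Drug library 1 and control library 2 were nearly level. TP53INP1, which promotes p53 phosphorylation and autophagy, averaged 3.34 ± 0.127 FPKM with drug and 2.91 ± 0.369 FPKM in control. SESN1, a sestrin that restrains mTORC1, averaged 2.33 ± 0.116 FPKM with drug and 2.18 ± 0.0224 FPKM in control. For both, each drug library lay above each control library. The mitochondrial electron carrier FDXR averaged 2.46 ± 0.0691 FPKM with drug and 2.43 ± 0.0771 FPKM in control, with overlapping libraries. None of TP53INP1, SESN1 and FDXR passed, with limma's adjusted p-values from 0.263 to 0.898. TIGAR, which lowers fructose 2,6-bisphosphate, was not tested, with 0.368 and 0.317 FPKM in drug libraries against 0.386 and 0.499 FPKM in control libraries. On the same strand another protein-coding annotation, AC008012.1, shares 42.59% of TIGAR's exon bases, so its reads are uncertain.

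The death receptor members did not pass. TNFRSF10B, receptor 2 for the ligand TRAIL, had 17.8 and 19.1 FPKM in drug libraries, against 16.4 and 16.1 FPKM in control libraries. The groups did not overlap, and the log2 fold change was 0.17 ± 0.04 (SE) with limma's adjusted p = 0.0592. It passed by edgeR on recovered reads, with adjusted p = 0.0342, and by limma when genes under 5 FPKM were left out, with adjusted p = 0.0319. It did not pass by DESeq2 on recovered reads (adjusted p = 0.0787) or in the authors' deposited table (adjusted p = 0.05025). By edgeR 4 members were higher and 4 lower, against 8.37% and 11.0% of all genes tested, and TNFRSF10B was the one added to limma's calls. TNFRSF10A, receptor 1 for TRAIL, had 7.71 and 7.55 FPKM with drug and 7.23 and 6.49 FPKM in control, with adjusted p = 0.174 by limma. An antisense gene, TNFRSF10A-AS1, shares 7.59% of its exon bases and had 5.03 to 6.33 FPKM, so the reads of both are uncertain.

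FAS, a receptor with a full p53 site in a window, had next to no reads in either group. The recovered counts were 0 and 2 reads in drug libraries and 0 and 2 reads in control libraries. A floor of 3 reads corresponds to 0.00254 and 0.00265 FPKM in drug libraries and to 0.00359 and 0.00265 FPKM in control libraries, for counting error only. The length implied by the deposited FPKM was 29.3 kb, against 4.25 kb of exons in GENCODE 29, from 2 reads in each of 2 libraries, so the gene model behind the deposited level is unclear and the level uncertain. For 25 of the 32 members the implied length was within 10% of GENCODE 29. Besides FAS it was not for PPM1D, MDM2, POLH, SESN1, TIGAR and ZMAT3. Levels of PPM1D, MDM2, POLH, SESN1 and ZMAT3 are therefore less secure than their differences between libraries. For FAS and TIGAR, which were under the filter, levels and differences are both uncertain.

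Of the 5 mitochondrial apoptosis members 4 were tested, and 1 rose and 2 fell, where 13.8% of all genes tested passed. So few genes say nothing about the route as a whole. The rise was that of BID, whose call did not hold in every setting, as given below. PMAIP1 (ENSG00000141682, chr18:59899948-59904306, plus strand) encodes NOXA, a BH3-only protein that neutralises MCL1. It had 9.65 and 9.71 FPKM in drug libraries, against 12.6 and 12.6 FPKM in control libraries. The libraries within a group were almost level and the groups stood well apart. The ratio of means was 0.767, and the log2 fold change was -0.35 ± 0.03 (SE) with limma's adjusted p = 0.00650.

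CASP9 (ENSG00000132906, chr1:15490832-15526534, minus strand) encodes the initiator caspase of the apoptosome. It had 4.42 and 4.71 FPKM in drug libraries, against 6.52 and 7.10 FPKM in control libraries. Both drug libraries were below both controls by more than the spread within a group. The means were 4.57 ± 0.208 and 6.81 ± 0.412 FPKM in drug and control, a ratio of 0.670, with a log2 fold change of -0.49 ± 0.06 (SE) and limma's adjusted p = 0.0109.

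BID (ENSG00000015475, chr22:17734138-17774770, minus strand) encodes the BH3-only protein that caspase 8 cleaves, joining the extrinsic route to mitochondria. It had 5.63 and 5.29 FPKM in drug libraries, against 4.36 and 4.16 FPKM in control libraries. The groups did not overlap. Its mean was 1.28-fold higher, 5.46 ± 0.241 FPKM with drug and 4.26 ± 0.143 FPKM in control, with a log2 fold change of 0.30 ± 0.05 (SE) and limma's adjusted p = 0.0275.

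BAX, the pore-forming effector, had 14.3 and 14.4 FPKM in drug libraries and 13.8 and 13.8 FPKM in control libraries. The drug libraries were slightly higher, and the log2 fold change was 0.05 ± 0.03 (SE) with a 95% interval from -0.03 to 0.13 and limma's adjusted p = 0.315. BBC3, which encodes the BH3-only protein PUMA, had 0.896 and 0.795 FPKM in drug libraries and 0.594 and 0.691 FPKM in control libraries, from 54 to 115 reads. Its drug libraries were above its controls, but it was under the filter, and the authors' deposited table gives a log2 fold change of 0.36 with adjusted p = 0.846.

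**Figure D3:**
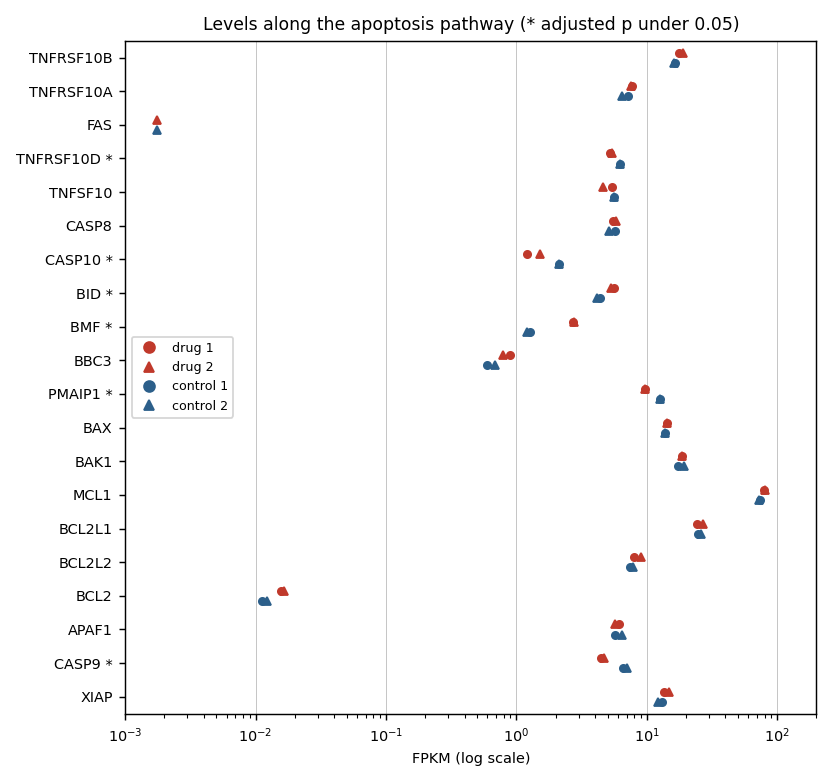
FPKM on a log axis in each library for members and other genes of the death receptor and mitochondrial routes, with drug libraries drawn above control libraries, values of 0 left out and an asterisk where limma's adjusted p was under 0.05. PMAIP1 and CASP9 are lower and BID and BMF higher in both drug libraries than in both control libraries.

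Among the other modulators of apoptosis and survival 4 of 5 members were in the table and tested, and 1 rose. PERP (ENSG00000112378, chr6:138088505-138107511, minus strand) encodes a tetraspan membrane protein of desmosomes that is also an apoptosis effector of p53. It had 244 and 242 FPKM in drug libraries, against 150.2 and 150.2 FPKM in control libraries. The libraries of each group were nearly level, and no other member was so high. The mean was 243 ± 1.51 FPKM with drug and 150.2 ± 0.0217 FPKM in control, 1.62-fold higher, and the log2 fold change was 0.69 ± 0.02 (SE) with limma's adjusted p = 0.000686. Its level over the 4 libraries ranked 118 among the 26603 genes.

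The exonuclease AEN, with a full p53 site just before its start, had 9.45 and 10.1 FPKM in drug libraries and 9.17 and 8.48 FPKM in control libraries. The groups did not overlap, and limma's adjusted p was 0.162. TRIAP1, a small mitochondrial protein that supports survival, averaged 35.8 ± 0.730 FPKM with drug and 36.9 ± 0.510 FPKM in control, with both drug libraries below both controls (limma adjusted p = 0.387). ZMAT3, an RNA-binding target of p53, averaged 2.59 ± 0.132 FPKM with drug and 2.56 ± 0.116 FPKM in control with overlapping libraries (limma adjusted p = 0.943).

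The 7 calls held to differing degrees when a library was left out. PERP, TP53I3 and PMAIP1 passed limma in all 4 such fits, with highest adjusted p-values of 0.0103, 0.0488 and 0.0428. CASP9 missed it without drug library 1 (adjusted p = 0.0527), CDKN1A without drug library 1 or control library 1 (highest adjusted p = 0.0678), CCNG1 in every fit but the one without control library 2 (highest adjusted p = 0.0811), and BID in all 4, with adjusted p-values from 0.0754 to 0.105. With every gene of the table tested in place of those past the filter, 3 of the 7 passed limma and BID, CASP9, CCNG1 and CDKN1A did not. All 7 passed by edgeR and DESeq2 on recovered reads, and in the authors' deposited table.

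**Figure D4:**
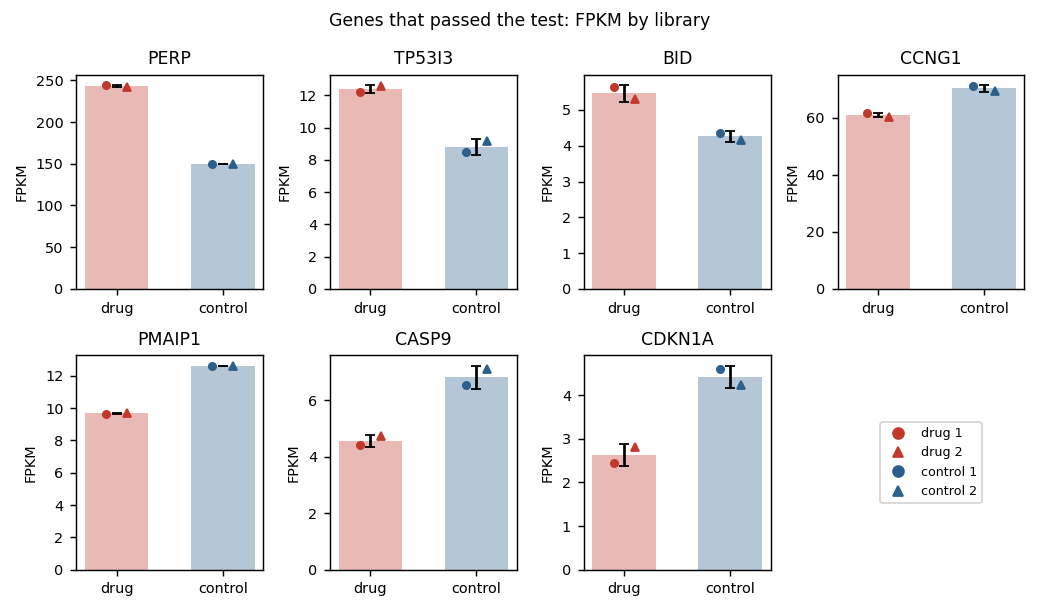
FPKM of the 7 members that passed limma, in each drug library (left) and control library (right), with bars for the mean and error bars for the SD. In each panel both drug libraries lie on one side of both control libraries, above for PERP, TP53I3 and BID and below for CDKN1A, CASP9, PMAIP1 and CCNG1.

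Among 26 genes of p53 and its regulators 22 were tested, of which 2 rose and 3 fell, against 4 higher and 3 lower by edgeR. SIRT1, a deacetylase that acts on p53, averaged 7.88 ± 0.293 FPKM with drug and 6.24 ± 0.0893 FPKM in control (limma adjusted p = 0.0185), and TRIM28, a corepressor that works with MDM2, averaged 73.9 ± 1.95 and 63.9 ± 1.95 FPKM in drug and control (limma adjusted p = 0.0250). Both were higher in each drug library than in each control library, and the rule for naming genes required groups that do not overlap. The damage kinase PRKDC fell to 32.3 ± 0.153 FPKM with drug, against 36.2 ± 0.289 FPKM in control (limma adjusted p = 0.0249). RPL5 and RPL11, ribosomal proteins that inhibit MDM2 when ribosome assembly is disturbed, fell to 320 ± 0.608 and 231 ± 1.65 FPKM with drug, against 349.5 ± 2.30 and 253 ± 4.45 FPKM in control (limma adjusted p = 0.0303 and 0.0361). For RPL11 the adjusted p was 0.0526 by limma on FPKM rescaled between libraries with TMM factors. Each of these 5 lost its call with any 1 library left out, with adjusted p-values by limma from 0.0516 (TRIM28) to 0.146 (RPL11).

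Of 64 further p53 target genes listed, 57 were in the table and 43 were tested, of which 0 rose and 6 fell. Their median log2 fold change was 0.01, against 0.04 over all genes tested. By edgeR 1 was higher and 9 were lower, by DESeq2 2 were higher and 8 lower, and by limma with a filter at 5 FPKM 4 were higher and 7 lower. The cytokine LIF averaged 0.457 ± 0.166 FPKM with drug and 1.33 ± 0.0920 FPKM in control (limma adjusted p = 0.0303). It reached the filter for testing through its control mean alone, so only a fall could be called at such a level. LIF's groups did not overlap, nor did those of the others that fell, which the rule for naming genes required. The adaptor TRAF4 averaged 10.3 ± 0.0929 FPKM with drug and 12.7 ± 0.510 FPKM in control. The calcium-dependent membrane protein ANXA4 averaged 20.5 ± 0.105 FPKM with drug and 24.5 ± 0.00344 FPKM in control, and the hydrolase CMBL averaged 5.50 ± 0.177 FPKM with drug and 6.94 ± 0.187 FPKM in control. TNFRSF10D, a decoy receptor that binds TRAIL without signalling, averaged 5.29 ± 0.105 FPKM with drug and 6.19 ± 0.0142 FPKM in control. Limma's adjusted p-values of TRAF4, ANXA4, CMBL and TNFRSF10D were 0.0179, 0.00958, 0.0210 and 0.0436. LIF, CMBL and TNFRSF10D lost the call with any 1 library left out, TRAF4 in all such fits but that without control library 1, and ANXA4 in all but that without control library 2. The highest adjusted p by limma in these fits was 0.153 (TNFRSF10D). TNFRSF10D did not pass by DESeq2 (adjusted p = 0.0684).

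In the rest of the BCL2 family 12 of 17 listed genes were tested, and 1 rose and 2 fell. BMF, a BH3-only protein released from the cytoskeleton under stress, had 2.73 and 2.75 FPKM in drug libraries, against 1.26 and 1.21 FPKM in control libraries. Its level was 2.22-fold higher, the log2 fold change was 0.74 ± 0.07 (SE) with limma's adjusted p = 0.00603, and it passed with each library left out. BNIP3L and BNIP3, receptors for mitophagy that are known as hypoxia-induced genes, fell to 7.97 ± 0.327 and 20.6 ± 0.138 FPKM with drug, against 11.2 ± 1.02 and 24.5 ± 1.28 FPKM in control (limma adjusted p = 0.0206 and 0.0288). Both lost the call in every fit with 1 library left out but that without control library 2, with highest adjusted p-values of 0.0849 and 0.118 by limma. Other family genes are named here after their values were seen. MCL1, the survival protein that PMAIP1 binds, had 78.7 and 81.3 FPKM in drug libraries and 74.1 and 73.0 FPKM in control libraries (limma adjusted p = 0.0554). BCL2L11, the BH3-only protein BIM, averaged 2.57 ± 0.0334 FPKM with drug and 1.96 ± 0.152 FPKM in control, which did not pass limma (adjusted p = 0.0662) and passed edgeR (adjusted p = 0.0273). BAK1 averaged 18.7 ± 0.123 FPKM with drug and 18.4 ± 1.32 FPKM in control, and BCL2 was under 0.02 FPKM in all 4 libraries.

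Downstream, 14 of 16 listed genes of the apoptosome, caspases and their inhibitors were tested, of which 0 rose and 1 fell. CASP10, an initiator caspase of death receptors, had 1.22 and 1.51 FPKM in drug libraries against 2.13 and 2.12 FPKM in control libraries (limma adjusted p = 0.0462), a call lost with any 1 library left out (adjusted p = 0.0757 or more by limma). The log2 fold change was negative in 10 of the 14, with a median of -0.04. Over all 11227 genes tested it was negative in 4381, with a median of 0.04. The 1 call was 7.14% of this list, against 13.8% of all genes tested, and whether the list as a whole shifted was not tested. APAF1, the scaffold that activates caspase 9, averaged 5.91 ± 0.256 FPKM with drug and 6.07 ± 0.463 FPKM in control. APAF1 was chosen after its values were seen, and its adjusted p by limma was 0.746. In death receptor signalling 11 of 17 listed genes were tested, of which 0 rose and 1, TNFRSF10D, fell by limma. By edgeR 2 were higher and 1 lower, and 2 were higher and 0 lower both by DESeq2 and in the authors' deposited table. The 2, named after their values were seen, were CFLAR, which blocks caspase 8, and RIPK1, a kinase of death receptor complexes. CFLAR had 3.23 and 3.65 FPKM in drug libraries and 2.83 and 2.95 FPKM in control libraries, with adjusted p = 0.132 by limma and 0.0188 by DESeq2. RIPK1 had 4.71 and 4.96 FPKM in drug libraries and 4.07 and 4.16 FPKM in control libraries, with adjusted p = 0.0665 by limma and 0.0402 by DESeq2. The drug libraries of both lay above the controls. TNFRSF10D's ligand gene TNFSF10, also named after its values were seen, had 5.37 and 4.63 FPKM in drug libraries and 5.63 and 5.64 FPKM in control libraries (limma adjusted p = 0.211).

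Of 16 listed partners in nucleotide excision repair and nucleotide supply 12 were tested, and 1 rose and 0 fell. That gene was RRM2, the S-phase counterpart of the p53-induced RRM2B, with 28.4 ± 0.822 FPKM with drug and 22.0 ± 0.219 FPKM in control. It rose by 0.35 ± 0.03 (SE) on the log2 scale (limma adjusted p = 0.00656) and passed with each library left out, while RRM2B did not pass. Among 21 listed relatives of the members 15 were tested, of which 1 rose and 2 fell. PLK1, the mitotic relative of PLK2 and PLK3, averaged 15.7 ± 0.588 FPKM with drug and 12.6 ± 0.221 FPKM in control (limma adjusted p = 0.0138). TP53INP2, the relative of TP53INP1, averaged 9.80 ± 0.121 FPKM with drug and 12.2 ± 0.0193 FPKM in control (limma adjusted p = 0.0109), and BTG3 averaged 28.5 ± 0.750 and 31.8 ± 0.387 FPKM in drug and control (limma adjusted p = 0.0396). TP53INP2 and BTG3 lost the call with any 1 library left out, and PLK1 in all such fits but that without drug library 1, with a highest adjusted p of 0.160 (BTG3) by limma. With no filter on low values, 14 of the 19 genes that passed in these lists lost the call, and ANXA4, BMF, RRM2 and TP53INP2 were among the 5 that kept it. Over these 7 lists together 126 of 172 genes were tested, and 5 rose and 14 fell, or 15.1%, against 13.8% of all genes tested.

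**Figure D5:**
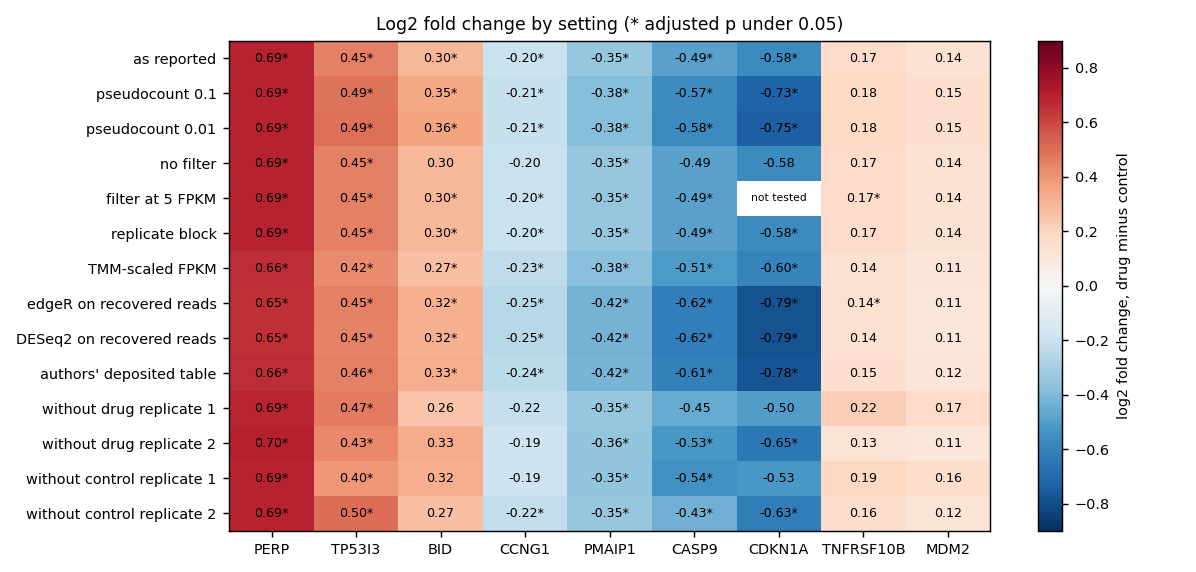
Log2 fold change, drug minus control, of the 7 members that passed and of TNFRSF10B and MDM2, in colour and as a value for each processing setting, with an asterisk where the adjusted p was under 0.05. No gene shown changes direction, and BID, CCNG1, CASP9 and CDKN1A lose the asterisk with no filter and in some of the fits with a library left out.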

How the data were processed

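Messenger RNA libraries of PLC8024 cells (2 drug, 2 control) were used from 1 table of 26603 genes. Extraction was with trizol and library construction by Illumina's stranded mRNA protocol, per the labels. Aligner, counter and annotation were not given in the sources used here, and the submitters' processing notes name the build hg38 and the demultiplexer bcl2fastq. Values in the 4 per-library columns are deposited as FPKM, a unit identified from the values. The group columns are a deposited signal, the authors' group mean of reads after division by size factors. Per the file headers, the log2 fold change and p-value columns hold the authors' comparison. Column names gave the sample by group and number.

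FPKM and the group signal together gave back each library's reads, and 100% of them lay within 0.1 of a whole number. On simulated control libraries the recovery gave back the reads of 100% of genes exactly. The fits were tried on simulated reads with known changes. Of 50 genes changed 1.25-fold there, limma recovered 12% and edgeR 52%. For 50 genes changed 1.5-fold it was 48% by limma and 70% by edgeR. Unchanged genes made up 5 of limma's 119 calls and 28 of edgeR's 180 in that simulation. Far fewer genes were changed there than passed in the data, and such shares depend on that, so they may differ in the data. Calls made by edgeR alone are still to be read with caution. Limma 3.58.1 (trend) was run on log2(FPKM + 1) over genes whose drug or control mean reached 1 FPKM, with Benjamini-Hochberg adjustment over all 11227 genes and a threshold of 0.05. Intervals are at 95%. Also tried were a filter at 5 FPKM, no filter, pseudocounts of 0.1 and 0.01, a replicate block, TMM-scaled FPKM, edgeR 4.0.16 and DESeq2 1.42.0 on the recovered reads (940 genes higher and 1233 lower by edgeR), the authors' deposited test, and each library left out. In that last case the lone library of a group is assumed to vary like the other group.

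The members and the other gene lists were chosen with earlier results of these data known. Named are all members, and of every other list the genes that passed with both drug libraries on one side of both controls, up to 6 a list by size of change. A few genes named by it are left out of the text. Gene coordinates and exon overlaps are from GENCODE 29 (25091 gene identifiers matched), and promoter windows are from RefSeq. With 2 libraries a group no test for outlying libraries was run. Software was Python 3.11.15 with pandas 2.3.3, numpy 2.4.6 and matplotlib 3.10.9, and R 4.3.3.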

Additional observations from a re-analysis of the deposited data

How the results depend on the processing

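With 2 libraries a group the standard error limits what can be called, and the filter on mean FPKM left PLK2, PLK3, TIGAR, FAS and BBC3 untested. Over all genes the main counts were 873 higher and 676 lower. They were 170 and 214 with no filter, where more genes were tested, 474 and 451 with the replicate block, and 549 and 724 with TMM-scaled FPKM. The lower count was 1233 by edgeR, 1109 by DESeq2 and 1073 in the authors' deposited table. With 1 library left out, in fits with fewer samples, 167 to 298 genes were higher and 253 to 315 lower. Members called higher numbered 3 in the main fit of limma and 2 in every fit with a library left out; those called lower numbered 4, against 1 with no filter and 1 to 4 with a library left out. Genes of the other lists called higher numbered 5, against 2 with no filter, 12 with a filter at 5 FPKM, 11 by edgeR, 11 by DESeq2, 10 in the authors' deposited table and 2 to 3 with a library left out. Those called lower numbered 14, against 3 with no filter, 5 with the replicate block and 1 to 4 with a library left out. The cause was not tested for the counts that differ at the same genes and samples. Replicate numbers are shared between groups by number only, and deviations of the libraries numbered 1 correlated at 0.0278 over genes. With the replicate block all 7 called members passed. Direction changed for 3 members, all with log2 fold changes near 0 and uncalled. RRM2B was -0.000813 by edgeR and -0.000901 by DESeq2. FDXR was -0.00676 with TMM scaling, -0.0206 by edgeR, -0.0201 by DESeq2, -0.0123 in the authors' deposited table, and -0.00926 to 0.0366 with a library left out, negative without drug library 1 (-0.00668) or control library 2. ZMAT3 was -0.0127 with TMM scaling, -0.0288 by edgeR, -0.0283 by DESeq2, -0.0206 in the authors' deposited table, and -0.0295 to 0.0459 with a library left out, negative without drug library 2 or control library 2 (-0.0250). TNFRSF10B gained a call by edgeR and with a filter at 5 FPKM, but not by DESeq2 or in the authors' deposited table. Over named genes and alternatives, 480 values kept direction and call and 100 kept direction and lost the call.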

Other observations

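The p53 relatives TP63 and TP73 were low in both groups. TP63 had 0.219 and 0.263 FPKM in drug libraries and 0.483 and 0.360 FPKM in control libraries, and TP73 was under 0.04 FPKM in all 4 libraries. CDKN2A, whose ARF product restrains MDM2, averaged 2.53 ± 0.0201 FPKM with drug and 2.85 ± 0.0747 FPKM in control (limma adjusted p = 0.195). These 3 genes were named after their values were seen. Among genes with 1 to 20 recovered reads, 63.8% and 63.4% of values were even in drug libraries and 68.3% and 67.0% in control libraries, against 49.9% to 51.0% among genes with over 100 reads.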
